A study of Mus musculus with 6 samples.

Results

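Hox genes encode the homeodomain transcription factors that give positions along the body axis their identity, and in mammals they lie in clusters A to D. Genes of the same number in different clusters, called paralogs, descend from a common ancestor, and low numbers are generally active further forward in the embryo than high numbers. In the kidney, the genes of paralog group 11 act with Pax2 and Eya1 in the metanephric mesenchyme to switch on Gdnf, whose signal makes the ureteric bud grow, those of group 10 are needed in the stroma, and Hoxb7 is active in the bud and its later branches, the collecting ducts. All probes were taken whose gene symbol, ignoring case, is Hox followed by a, b, c or d and a number from 1 to 13, which gave 57 of the 45281 probes on the array and 39 genes. The table holds 30854 distinct gene symbols in all.

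RNA of whole kidneys of mice of mixed background at embryonic day 18.5, of undetermined sex, had been hybridised to 6 Illumina bead arrays, 3 for each group. The mutants carried HoxB7Cre, 1 floxed and 1 null allele of Rbpj (RBPJf/-) and a Rosa reporter (Rosa+/Eyfp). The controls, called wild type in the labels, were littermates with both Rbpj alleles floxed (RBPJ f/f), the same Rosa +/Eyfp reporter and no Cre in their listed genotype. Rbpj is the DNA-binding protein of the Notch pathway. The promoter of Hoxb7 directs the Cre to the bud and its ducts, whereas the null allele of the mutants was in every cell. A difference between the groups joins both, and also the presence of the Cre, which the controls lack in their listed genotype. In RNA of a whole organ, fewer cells of a type and less RNA per cell cannot be told apart. The descriptions of all 3 mutant samples name mouse 1 while their titles number them 1 to 3. The numbers of the titles were used. If the 3 mutant samples shared an animal, their spread would be technical only. The p-values would then hold no spread between mutant animals. Where kidneys are counted below, each is the sample of 1 array.

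The arrays were of like brightness. The median signal per array ran from 195.5 to 222.6, and 19421 to 20302 probes per array (42.9% to 44.8%) were detected, meaning that their signal exceeded over 99% of the negative control beads of the same array. The lowest signal called detected was 228.8 to 252.2, or 7.88 to 7.96 on the normalized log2 scale used below. Markers of nephron progenitors, stroma, podocytes, proximal tubule and loop of Henle were detected on all 6 arrays, as were 2 of 2 blood markers. None of the 4 adrenal and none of the 3 skeletal muscle markers was (Acta1 was on 3). Of the 2 liver markers, Apoa1 was detected on all 6 arrays and Alb on none. Of the 2 gonad markers, Sox9 was detected on all 6 and Amh on none. Of the 2 endothelial markers, Pecam1 was detected on all 6 and Kdr on none. As a check of the labels, the 3 probes for Rbpj were detected on no array, so they could not show its loss. Of the 8 tested probes for Rbpj's target genes (Hes1, Hes5, Hey1, Hey2, Heyl and Nrarp), 4 were higher and 4 lower in the mutants and none was called by limma. At a limma unadjusted p under 0.05, 2 of the 8 were higher (Hey1 and Nrarp) and 1 lower (a Hes5 probe), against 6.18% of all probes. The EGFP probe, which was not among the genes listed for the comparison and was looked at because the reporter is a green fluorescent protein variant, read 8.74, 8.41 and 8.51 in the wild type and 10.42, 9.97 and 10.26 in the mutants, 3.17-fold higher (log2 difference 1.66, SE 0.127, limma adjusted p = 0.000133), with no overlap.

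Of the 39 Hox genes, 24 were detected by at least 1 probe on all 6 arrays, 2 (Hoxb8 and Hoxc11) on 1 array each and 13 on none. Probe by probe, 31 of 57 (54.4%) were detected on all 6 arrays, against 18123 of all 45281 probes (40.0%). Every array detected 31 or 32 of the 57. Brightness also depends on the sequence of a probe, so levels are given for each probe and are not ranked between genes. An undetected probe is only not well above background, and 10 of the 13 undetected genes had 1 probe. In 5 of the 13 genes with several probes (Hoxa9, Hoxa10, Hoxa13, Hoxb3 and Hoxd12) a detected probe stood beside 1 or more that were not detected on all arrays.

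**Figure D1:**
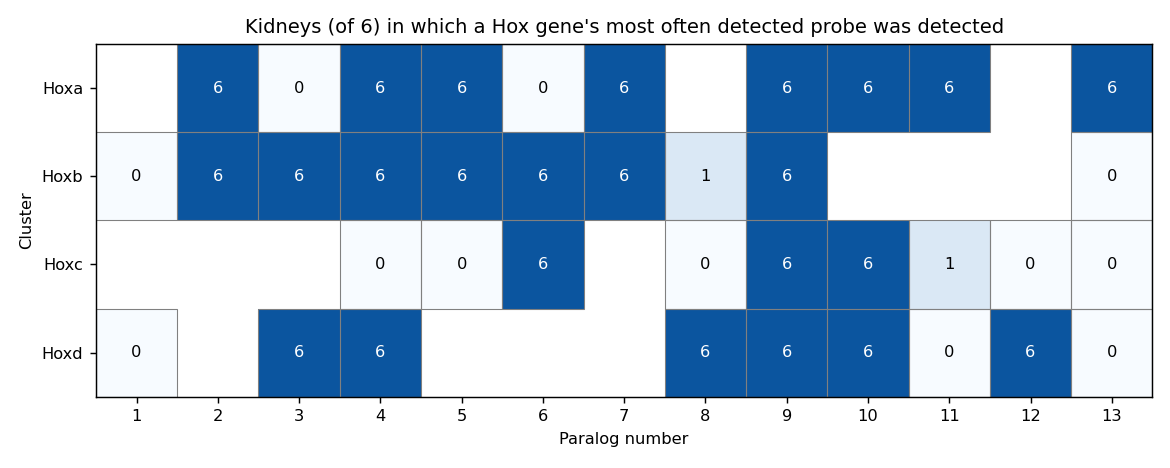
Number of the 6 kidneys in which the most often detected probe of each Hox gene was detected, by cluster (vertical) and paralog number (horizontal); empty positions have no gene in the table or are not shown. Every gene of groups 2, 7, 9 and 10 was detected on all 6 arrays, and of the 4 genes of group 13 only Hoxa13 was.

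The detected genes were spread over the clusters and over the axis of numbers. In cluster A 8 of 11 genes were detected on all arrays, in cluster B 7 of 10, in cluster C 3 of 9 and in cluster D 6 of 9. By number, 7 of 12 genes numbered 1 to 4, 11 of 15 numbered 5 to 9 and 6 of 12 numbered 10 to 13 were detected on all arrays. Every gene of groups 2 (2 genes), 7 (2 genes), 9 (4 genes) and 10 (3 genes) was detected. Of the 4 genes of group 13 only Hoxa13, a regulator of the distal limb and the genital tubercle, was.

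Among the 13 genes at 0 arrays were Hoxb1, which patterns the hindbrain, and Hoxa3, needed for the thymus and parathyroid. Hoxa6 was at 0 in cluster A too, and Hoxd1, Hoxd11 and Hoxd13 were at 0 in cluster D. Cluster C had the most, namely Hoxc4, Hoxc5, Hoxc8, Hoxc12 and Hoxc13, the last known for hair follicles. The probe of Hoxb13, known in prostate and tail development, had signals of 116.9 to 170.4 and detection scores (the share of negative controls exceeded) of 0.00321 to 0.328. Hoxd13, a digit gene, reached signals of 184.3 to 223.7. Its highest detection score of 0.979, like the 0.983 of Hoxa3 probe 5720347, stayed below 0.99.

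**Figure D2:**
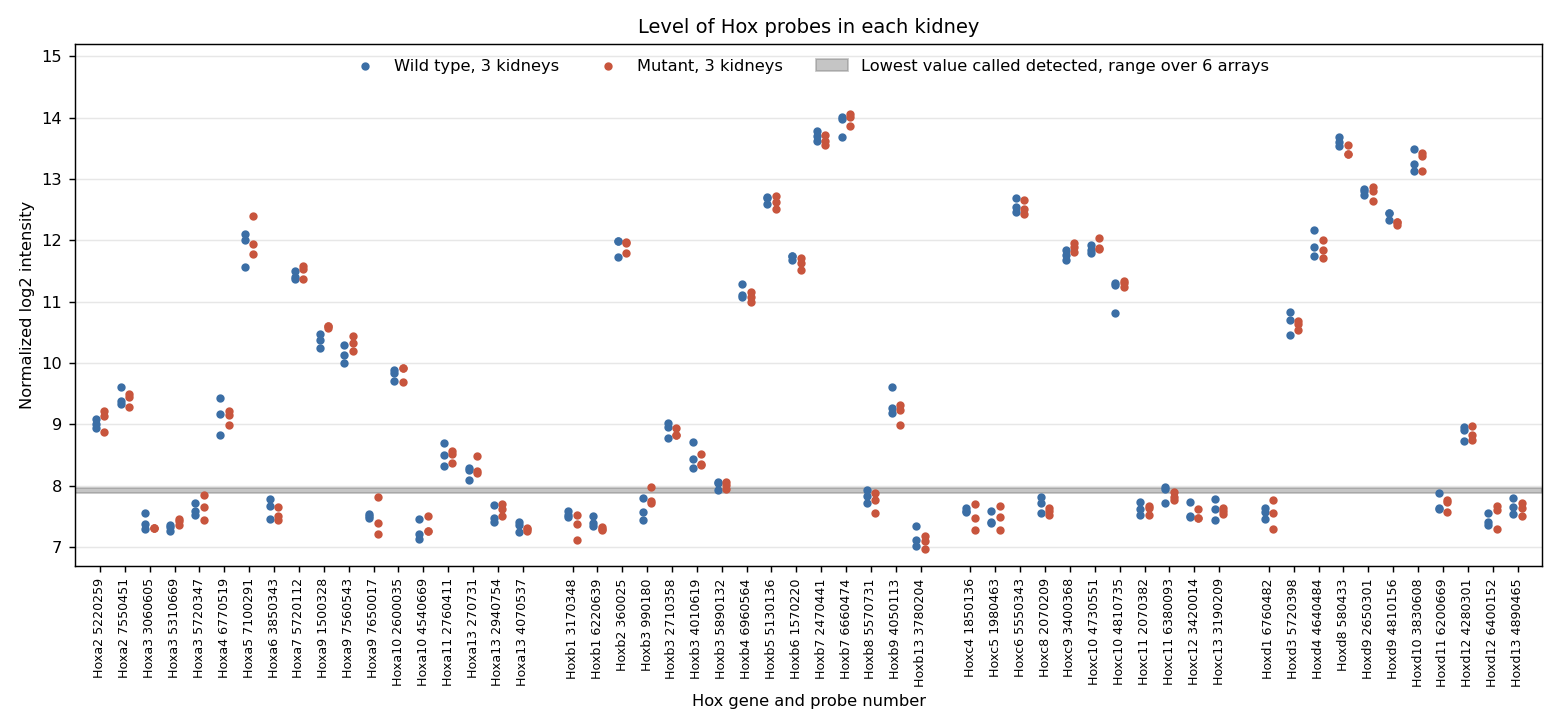
Normalized log2 intensity of the Hox probes (horizontal, by cluster and number) in each kidney, 3 wild type in blue and 3 mutants in red; the grey band is the range over arrays of the lowest value called detected, 7.88 to 7.96. The groups are apart for 2 of the 34 tested probes, and the plotted probes detected on no array lie at or below the band.

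Cluster A held detected genes from number 2 to number 13. Values are normalized log2 intensities, always in the order of replicates 1 to 3. Hoxa2 (probe 5220259) read 9.005, 9.09 and 8.94 in the wild type and 9.23, 9.14 and 8.88 in the mutants. Hoxa2 patterns the hindbrain and the second pharyngeal arch. Hoxa2 (probe 7550451) read 9.34, 9.61 and 9.38 in the wild type and 9.49, 9.45 and 9.28 in the mutants. Hoxa4 (probe 6770519) read 8.83, 9.43 and 9.16 in the wild type and 8.99, 9.23 and 9.15 in the mutants. The groups overlapped for these 3 probes. Hoxa5 (probe 7100291) read 12.10, 12.01 and 11.57 in the wild type and 12.39, 11.94 and 11.77 in the mutants. Hoxa5 directs lung and cervicothoracic development, and here wild type replicate 3 and mutant replicate 1 were the lowest and highest, and its difference had the widest interval of the 34 Hox probes tested, 0.14 (95% interval -0.22 to 0.51). Hoxa7 (probe 5720112) read 11.50, 11.41 and 11.37 in the wild type and 11.54, 11.58 and 11.37 in the mutants. Hoxa13 lay closer to the detection limit. Hoxa13 (probe 270731) read 8.09, 8.29 and 8.26 in the wild type and 8.25, 8.49 and 8.21 in the mutants. The groups overlapped for Hoxa7 and Hoxa13 too, and the 2 other Hoxa13 probes were detected on no array.

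Cluster B was detected from number 2 to number 7 and at 9. Hoxb2 (probe 360025) read 11.98, 12.00 and 11.73 in the wild type and 11.79, 11.96 and 11.97 in the mutants. Hoxb3, a hindbrain and pharyngeal gene, had 4 probes, of which 3 were detected on all arrays. Hoxb3 (probe 2710358) read 8.95, 8.78 and 9.03 in the wild type and 8.83, 8.83 and 8.94 in the mutants. Hoxb3 (probe 4010619) read 8.28, 8.72 and 8.43 in the wild type and 8.36, 8.51 and 8.34 in the mutants. Hoxb3 (probe 5890132) read 7.94, 8.05 and 8.06 in the wild type and 8.07, 8.01 and 7.95 in the mutants. These 3 sat at log2 differences of -0.05, -0.07 and -0.01, and the groups overlapped in each. Hoxb4 (probe 6960564) read 11.11, 11.08 and 11.28 in the wild type and 11.08, 11.16 and 10.99 in the mutants. Hoxb5 (probe 5130136) read 12.59, 12.71 and 12.69 in the wild type and 12.72, 12.51 and 12.62 in the mutants. Hoxb6 (probe 1570220) read 11.74, 11.68 and 11.75 in the wild type and 11.63, 11.71 and 11.51 in the mutants. For Hoxb2, Hoxb4, Hoxb5 (a gene of enteric neural crest) and Hoxb6, the groups overlapped as well.

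In cluster C only Hoxc6, Hoxc9 and Hoxc10 were detected on all arrays. Hoxc6 (probe 5550343) read 12.69, 12.55 and 12.46 in the wild type and 12.65, 12.43 and 12.51 in the mutants. Hoxc9 (probe 3400368) read 11.85, 11.77 and 11.68 in the wild type and 11.96, 11.89 and 11.81 in the mutants, and Hoxc9, which sets the thoracic identity of motor neurons, overlapped between groups. Cluster D was detected at numbers 3, 4, 8, 9, 10 and 12. Hoxd3 (probe 5720398) read 10.84, 10.70 and 10.46 in the wild type and 10.64, 10.54 and 10.69 in the mutants. Hoxd4 (probe 4640484) read 12.16, 11.75 and 11.89 in the wild type and 11.85, 12.00 and 11.71 in the mutants. Hoxd3 and Hoxd4, known for the first cervical vertebrae, also overlapped. Hoxd8 (probe 580433) read 13.54, 13.69 and 13.60 in the wild type and 13.41, 13.41 and 13.56 in the mutants, so the highest mutant lay above the lowest wild type. Hoxd9 (probe 2650301) read 12.74, 12.83 and 12.80 in the wild type and 12.65, 12.80 and 12.87 in the mutants. Hoxd12 (probe 4280301) read 8.91, 8.96 and 8.73 in the wild type and 8.75, 8.97 and 8.83 in the mutants, whereas the other probe for Hoxd12, a digit gene, was detected on no array.

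Mutant and wild type kidneys were compared to ask which Hox transcripts differ between these genotypes. None of the Hox probes passed the test. Of 22640 probes tested, those with a mean above 7.71 over the 6 arrays, limma called 23 at an adjusted p under 0.05 (0.102%), and of the 34 Hox probes among them, 0. At an unadjusted p under 0.05 it gave 1 of the 34 Hox probes, against 1399 of all probes (6.18%). The groups did not overlap in 2 of 34 (5.88%) against 11.3% of all. The 23 dim Hox probes left out, detected on no array, were taken from a fit without a filter. In it, 0 of 57 Hox probes and 31 of all 45281 (0.0685%) were called. Of the 57, 22 were higher and 35 lower in the mutants (38.6% higher, against 49.9% of all probes).

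The Hox differences were small in both directions. Of the 34 probes, 14 were higher and 20 lower in the mutants, with a median log2 difference of -0.02 (all probes tested, 49.5% higher and a median of -0.0012) and a range of -0.17 to 0.23. The median size was 0.0736, against 0.074 over all probes tested. By cluster, 7 of 10 probes of A, 3 of 12 of B, 3 of 5 of C and 1 of 7 of D were higher. The 95% intervals of all 34 left out a change of 1.5-fold in either direction, as did 97.8% of all probes tested, and 28 left out 1.3-fold. These bounds are for values without background subtraction. After background subtraction by neqc, only the dim Hoxb3 probe 990180 of the 34 had an estimate beyond 1.5-fold (log2 difference 0.60). Intervals after neqc are not given, so the bounds above do not carry over to it. The SD within groups had a median of 0.12 over the Hox probes and 0.118 over all. Wild type replicate 3 was the highest or lowest array for 15 of the 34 Hox probes (44.1%) and for 37.3% of all probes.

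**Figure D3:**
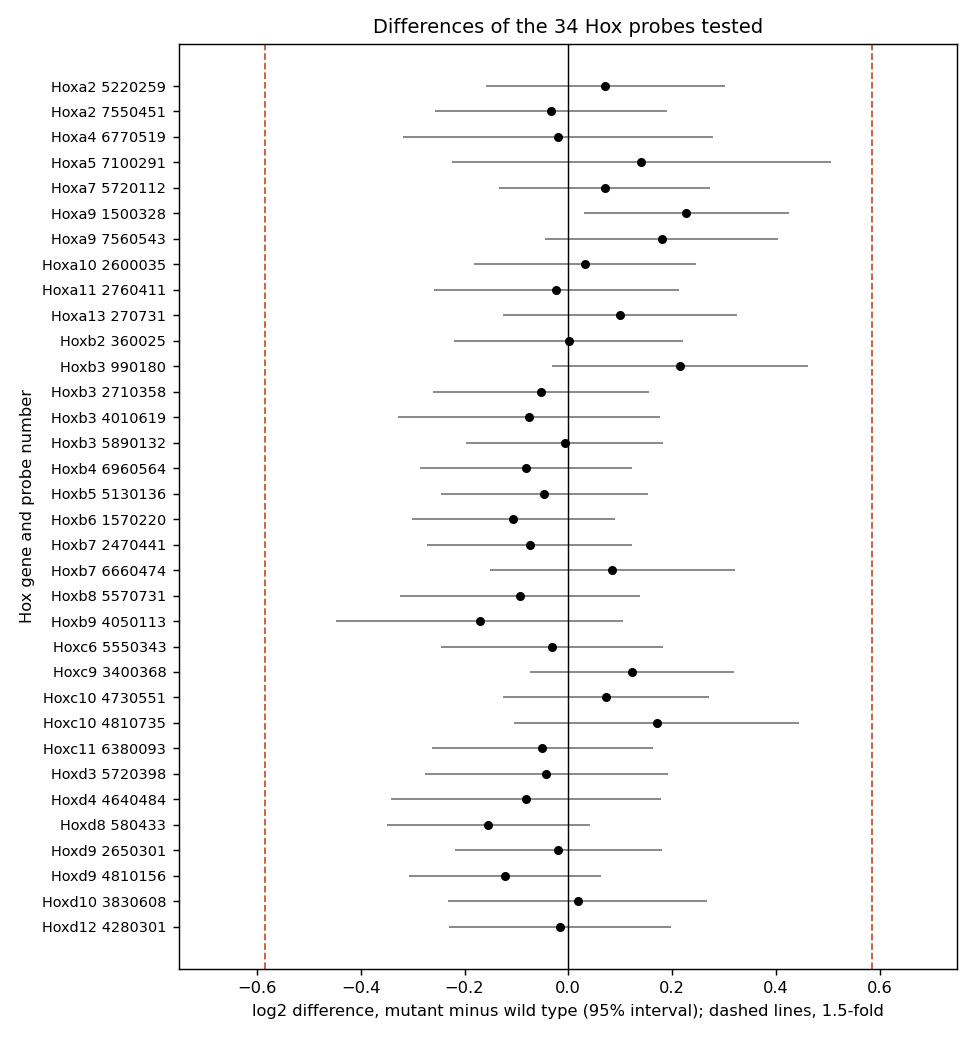
Log2 difference, mutant minus wild type, of each of the 34 Hox probes tested, with its 95% interval (limma, 3 against 3); dashed lines mark 1.5-fold. Every interval lies within the dashed lines on this scale without background subtraction, and only that of Hoxa9 probe 1500328 leaves out 0.

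**Figure D4:**
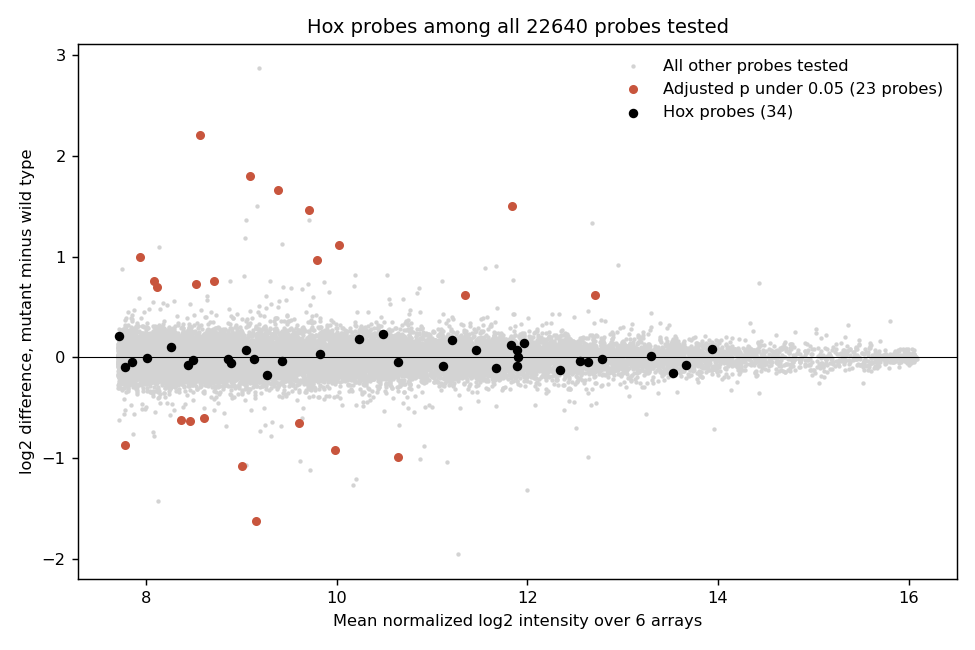
Log2 difference against mean normalized log2 intensity for the 22640 probes tested; black, the 34 Hox probes, red, the 23 probes with an adjusted p under 0.05. The Hox probes lie between -0.17 and 0.23, within the grey cloud.

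Hoxa9, known for its part in blood-forming progenitors and leukaemia, had the largest difference. Hoxa9 (probe 1500328) read 10.47, 10.38 and 10.25 in the wild type and 10.61, 10.60 and 10.58 in the mutants, or 10.37 ± 0.114 against 10.60 ± 0.0147 (SD, n = 3 each). All 3 mutants lay above all 3 wild types. The mutants were 1.17-fold higher (95% interval 1.02 to 1.34), a log2 difference of 0.23 with SE 0.0898. This is the 1 Hox probe with a limma unadjusted p under 0.05, and its limma adjusted p was 0.775. Without wild type replicate 3 its difference was 0.17 (limma unadjusted p = 0.103). With 1 array left out, the limma unadjusted p stayed under 0.05 only without wild type replicate 1 (0.0166) or mutant replicate 3 (0.0442). Hoxa9 (probe 7560543) read 10.29, 10.13 and 10.01 in the wild type and 10.44, 10.33 and 10.19 in the mutants, and there the groups overlapped. Its difference was 0.18 (95% interval -0.05 to 0.40, limma adjusted p = 0.862), and 0.11 without wild type replicate 3. The third Hoxa9 probe (7650017) was detected on no array.

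The next largest was Hoxb3 probe 990180, detected on 1 array only, mutant replicate 3. It read 7.58, 7.80 and 7.44 in the wild type and 7.75, 7.72 and 7.98 in the mutants, a difference of 0.21 (95% interval -0.03 to 0.46, limma adjusted p = 0.85), and the groups overlapped. The other 3 probes of the gene were slightly lower in the mutants, as given above. After background subtraction by neqc the difference of probe 990180 was 0.60. Leaving out wild type replicate 3 gave 0.13. Hoxb9 patterns the ribs. Hoxb9 (probe 4050113) read 9.18, 9.26 and 9.62 in the wild type and 9.31, 8.999 and 9.24 in the mutants, a difference of -0.17 (95% interval -0.45 to 0.11, limma adjusted p = 0.926), again with overlap. It was -0.04 without wild type replicate 3 and -0.08 without mutant replicate 2. Hoxd9 probe 4810156 was singled out after its values were seen, because its groups did not overlap. It read 12.44, 12.44 and 12.33 in the wild type and 12.30, 12.30 and 12.24 in the mutants, a difference of -0.12 (95% interval -0.31 to 0.06, limma adjusted p = 0.919), while the other Hoxd9 probe lay at -0.02.

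**Figure D5:**
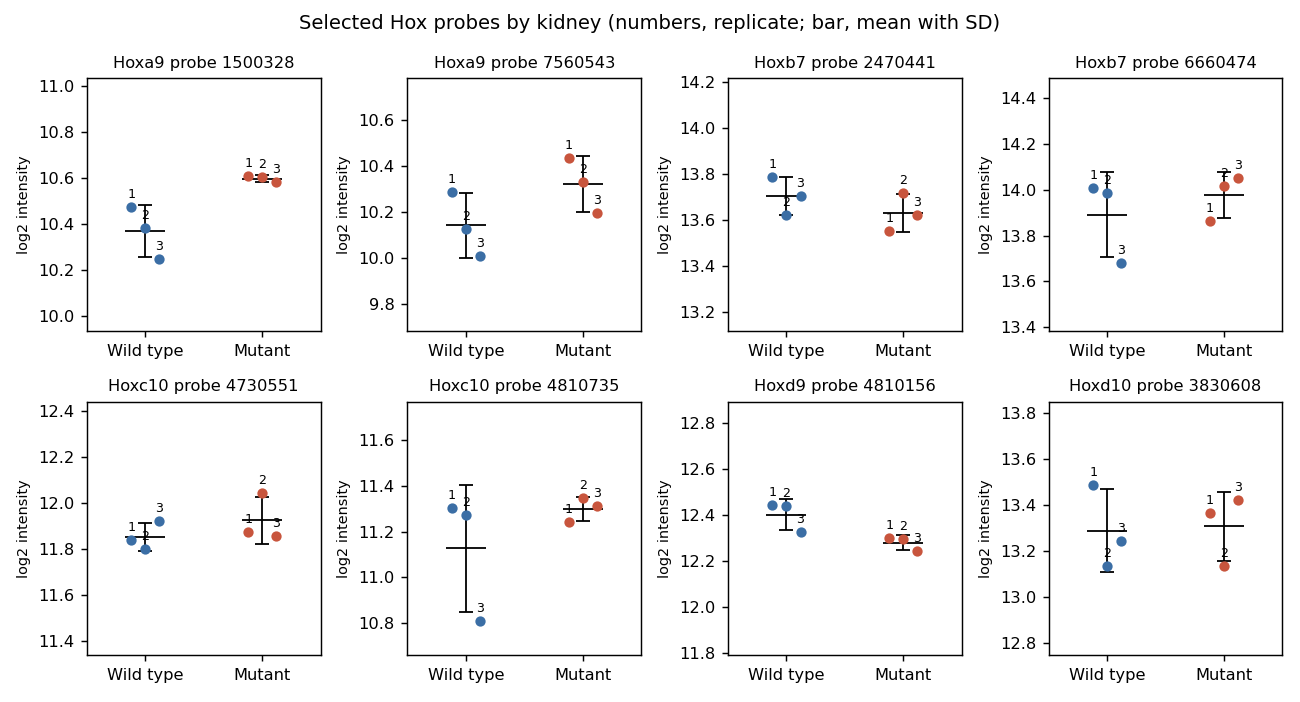
Normalized log2 intensity by group for 8 Hox probes; points are kidneys numbered by replicate, bars are the mean with the SD (n = 3 per group), and every axis spans the same width. The groups are apart for Hoxa9 probe 1500328 and Hoxd9 probe 4810156 and overlap for the other 6.

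Hoxb7, whose promoter drives the Cre, was measured by 2 probes that went opposite ways. Hoxb7 (probe 2470441) read 13.79, 13.62 and 13.70 in the wild type and 13.55, 13.72 and 13.62 in the mutants. Hoxb7 (probe 6660474) read 14.01, 13.99 and 13.68 in the wild type and 13.86, 14.01 and 14.05 in the mutants. Their differences were -0.07 (95% interval -0.27 to 0.12, limma adjusted p = 0.958) and 0.08 (-0.15 to 0.32, limma adjusted p = 0.962), so neither was told from 0. Beside them stood the 6 tested probes of the collecting duct and ureteric bud markers (Aqp2, Ret, Gata3 and Wnt11, with Calb1 not detected). All 6 were lower in the mutants, with a median log2 difference of -0.18, and none was called. Over all probes tested, 11433 of 22640 were lower. Ret lay at -0.25 and -0.05, Gata3 at -0.10 and Wnt11, detected on 4 arrays, at -0.06. The water channel Aqp2 was at -0.45 (limma adjusted p = 0.664) and -0.49 (limma adjusted p = 0.448). Of the markers of intercalated cells, which also lie in the collecting duct, Foxi1 was higher in the mutants by both tested probes, at 0.53 (limma adjusted p = 0.267) and 0.30 (limma adjusted p = 0.728), and Slc4a1 was lower, at -0.44 (limma adjusted p = 0.169). Atp6v1b1 was detected on no array, and none of the 3 tested probes was called. Whether the number of collecting duct cells bears on the Hoxb7 values was not tested.

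All 3 genes of paralog group 10 were detected. Hoxa10 (probe 2600035) read 9.89, 9.71 and 9.84 in the wild type and 9.92, 9.69 and 9.92 in the mutants, a difference of 0.03. Hoxc10 (probe 4730551) read 11.84, 11.80 and 11.92 in the wild type and 11.88, 12.04 and 11.86 in the mutants, a difference of 0.07, and the second Hoxc10 probe differed by 0.17 (95% interval -0.10 to 0.44). That probe (4810735) read 11.30, 11.27 and 10.81 in the wild type and 11.24, 11.34 and 11.31 in the mutants, where wild type replicate 3 was the lowest. Without that array the difference was 0.01. Hoxd10 (probe 3830608) read 13.49, 13.14 and 13.25 in the wild type and 13.37, 13.14 and 13.42 in the mutants, a difference of 0.02. The groups overlapped in all 4 probes, and limma adjusted p ran from 0.926 to 0.992.

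In paralog group 11, Hoxa11 was the only gene detected on all arrays. Hoxa11 (probe 2760411) read 8.32, 8.51 and 8.69 in the wild type and 8.52, 8.37 and 8.57 in the mutants, above the detection limit of 7.88 to 7.96, and the groups overlapped with a difference of -0.02 (95% interval -0.26 to 0.21, limma adjusted p = 0.99). Hoxc11 probe 6380093 was detected on 1 array, wild type replicate 2. It read 7.72, 7.99 and 7.94 in the wild type and 7.90, 7.78 and 7.81 in the mutants, with overlap and a difference of -0.05 (95% interval -0.26 to 0.16, limma adjusted p = 0.976), and the other probe was detected on none. Hoxd11, which in knockout mice acts together with Hoxa11 in the kidney, read signals of 193.3 to 218.3 with detection scores of 0.798 to 0.982, below the limit on every array. The promoters of this pair are shown because the genes act together while the array detected only Hoxa11. The table of RefSeq promoters used here (GRCm38.p6) was matched by symbol, with 24 promoters for 22 of the 39 genes. The windows run from 250 bases before to 50 after a start. That of Hoxa11 is chr6:52245761-52246060, minus strand, and Hoxd11 has windows on the plus strand at chr2:74679308-74679607 (start 1) and chr2:74682073-74682372 (start 2). Capitals mark matches to TATAAA (the classic core promoter box) or TGATNNAT (a Pbx and Hox type site), searched on both strands.
Hoxa11: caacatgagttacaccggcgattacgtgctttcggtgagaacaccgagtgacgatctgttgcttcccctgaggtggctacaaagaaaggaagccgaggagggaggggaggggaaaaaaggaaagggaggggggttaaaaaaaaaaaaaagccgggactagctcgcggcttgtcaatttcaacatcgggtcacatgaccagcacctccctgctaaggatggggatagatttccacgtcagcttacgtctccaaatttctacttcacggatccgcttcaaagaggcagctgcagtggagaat
Hoxd11 start 1: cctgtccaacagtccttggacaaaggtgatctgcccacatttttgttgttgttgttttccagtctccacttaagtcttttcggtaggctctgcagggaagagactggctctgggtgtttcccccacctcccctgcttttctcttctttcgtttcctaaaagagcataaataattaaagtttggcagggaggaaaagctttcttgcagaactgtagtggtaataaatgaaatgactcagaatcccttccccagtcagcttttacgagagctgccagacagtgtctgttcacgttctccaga
Hoxd11 start 2: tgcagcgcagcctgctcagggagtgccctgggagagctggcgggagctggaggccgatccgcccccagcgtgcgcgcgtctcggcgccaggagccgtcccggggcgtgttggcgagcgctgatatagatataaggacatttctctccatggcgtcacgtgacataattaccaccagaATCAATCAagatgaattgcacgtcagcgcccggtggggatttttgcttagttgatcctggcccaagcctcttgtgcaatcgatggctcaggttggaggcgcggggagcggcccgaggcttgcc
Only start 2 of Hoxd11 held a match, 1 to TGATNNAT, in the reverse orientation. TATAAA occurred in 4 of the 24 Hox promoters (16.7%) and in 13.6% of all 32851 promoters, and TGATNNAT in 4 (16.7%) and 8.85%, with no overlap between matches of the 2 motifs. The median GC content was 57.7% in the Hox promoters and 52.7% in all, and the median number of CpG pairs 14.5 and 7.

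The genes that work with Hox proteins were described in the same way, 30 listed genes of which 29 had a probe and 22 were detected on all arrays. All 9 DNA-binding partners (the Pbx, Meis and Pknox genes) were detected, and 10 of their 22 tested probes were higher and 12 lower. Of the regulators of the clusters, the caudal genes Cdx1, Cdx2 and Cdx4 were detected on no array. None of the 45 tested probes was called by limma, and 1 was higher and 2 lower at an unadjusted p under 0.05, near the 6.18% of all probes, and the median was -0.01. Gfra1, the co-receptor for Gdnf, had the lowest p. Its probe, detected on 3 arrays, read 7.70, 7.73 and 7.52 in the wild type and 8.06, 7.97 and 8.17 in the mutants, a difference of 0.42 (limma adjusted p = 0.322) with no overlap, as in 11.3% of all probes. With neqc, which subtracts background, its difference was 1.19. The histone methyltransferase gene Kmt2a (Mll1 in the table), which maintains Hox activity, had 2 tested probes. Probe 2100364 read 9.98, 10.01 and 10.02 in the wild type and 9.76, 9.75 and 9.61 in the mutants, a difference of -0.30 (limma adjusted p = 0.633). Probe 2650672 read 11.82, 11.66 and 11.58 in the wild type and 11.38, 11.45 and 11.51 in the mutants, a difference of -0.24 (limma adjusted p = 0.784). The groups did not overlap for either.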

How the data were processed

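Biotin-labelled RNA of whole kidneys was measured on 6 Illumina bead arrays of 1 slide. The deposited signal table holds, per the file headers, average bead intensity (linear, not background-subtracted as far as the values show) and a detection value per probe. The detection value is a fraction in the deposited table, 1 for every bright probe, and was read as 1 minus the detection p, with detection at a score above 0.99. The deposited value table holds log2 intensities for named samples. Their ranks equalled those of the signals at all 45281 probes on all 6 arrays for 1 column order. Of the other 719 orders, only those with closely agreeing correlations between arrays were compared probe by probe, and the best of these matched 26 probes. Signals, detection values and gene symbols were tied to samples on this basis, not by a label. The log2 values equal a quantile normalization of the log2 signals to within 0.00105. What software the authors used, how they set the normalization and which genome build applies is not stated in the labels or headers (not given in the sources used here). Quantile normalization removes a shift shared by most probes, and without background subtraction folds of dim probes are understated. The 2 other per-sample columns (bead counts and bead SD of 1 array) were not used.

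Groups came from the sample titles. The deposited log2 values of the 2 groups were tested with limma 3.58.1 (lmFit, eBayes; R 4.3.3) with group as the only term, for probes with a mean above the median over probes (7.71), adjusted by Benjamini-Hochberg over 22640 probes. Tables were made with pandas 2.3.3 in Python 3.11.15. The test was checked on simulated data. The number of arrays limits the precision. Values in every sample are given for the Hox probes detected on all arrays, those with an unadjusted p under 0.05, the 4 largest differences, Hoxb7 and the tested probes of paralog groups 10 and 11, and for the 3 listed partner probes with the lowest p. The members and lists were chosen with earlier results of these data known. Alternatives were detection thresholds, no filter, leaving out each array, a block for the replicate number, a variance trend with robust estimation, array weights, neqc (offset 16) on the signals, quantile normalization of the signals and a threshold of 0.1. A gene of the list enters the totals but is not reported here by itself.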

Additional observations from a re-analysis of the deposited data

How the results depend on the processing

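The number of Hox genes detected was 24 under every alternative except detection on at least 1 array, which gave 26. No Hox probe was called by limma under any alternative, with 0 to 2 at an unadjusted p under 0.05 and a lowest adjusted p of 0.629 to 1.0. The median Hox difference lay between -0.0321 and 0.00461. The count of all probes called was 23. It was 10 with neqc on the signals, which subtract the background, and 13 to 37 when 1 array was left out (13 without wild type replicate 1, 13 without mutant replicate 2, 37 without wild type replicate 3). The cause was not tested. Testing only probes detected on all arrays, which was added once the data had been seen, gave 17.

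Of 204 fits of the 15 named probes under alternatives, 193 kept their direction and none was called. Only leaving out an array, array weights and neqc could move a difference. The other alternatives kept or re-created the same differences, so their fits could not turn. The 11 that turned were all fits without 1 array, of differences near 0. Without 1 array, Hoxa10 probe 2600035 ranged from -0.02 (without wild type replicate 2) to 0.107, and was also below 0 without mutant replicate 1 (-0.00774) or 3 (-0.0049). Hoxa11 ranged from -0.115 to 0.0685 (without wild type replicate 3), and was also above 0 without mutant replicate 2 (0.0341). Hoxd10 ranged from -0.0585 (without wild type replicate 2) to 0.117, with -0.0107 and -0.0384 without mutant replicates 1 and 3 and -0.00379 without wild type replicate 3. Hoxc11 probe 6380093 ranged from -0.133 to 0.00216 (without wild type replicate 2), and Hoxb7 probe 6660474 from -0.0212 (without wild type replicate 3) to 0.143. Hoxb9 and Hoxc10 probe 4810735 kept their direction but shrank to -0.0387 and 0.0108 without wild type replicate 3. Hoxb3 probe 990180 fell below the filter without mutant replicate 1 or 3 or wild type replicate 2, so no value is given there.

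Same-numbered samples did not deviate together (correlations of -0.03, -0.09 and -0.07), and no pairing was assumed. With the replicate number as a block, 0 Hox probes and 23 of all probes were called. Each number occurs once per group, so this block cannot change a difference, and the median Hox difference stayed at -0.0195. Slide as a block was not run, because all 6 arrays lay on 1 slide. Probes near the detection limit, such as those of Hoxc11 and Hoxd11, limit what a difference there can show, and a gene with 1 undetected probe cannot be said to be silent.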
